A study of Mus musculus with 15 samples.

Results

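The chemokines and chemokine receptors of the mouse ileum were described in RNA-seq counts from 15 adult mice. Members were taken by symbol: every Ccl, Cxcl, Ccr, Cxcr and Xcl gene with a number, plus Cx3cl1, Cx3cr1, Xcr1 and the atypical receptors Ackr2, Ackr3 and Ackr4, with 1 pair of interferon-induced CXC ligands left out. This gave 55 of the 37620 gene identifiers in the tables: 33 ligands, 19 signalling receptors and 3 atypical receptors. Another 5 names that fit the rule (Ccl19-ps3, Ccl21a, Ccl21b, Ccl27b and Ccl28) matched none of these identifiers and so could not be analysed. The members together held 0.0747 to 0.0954% of the counts of a library, and 12 of them averaged fewer than 10 counts.

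All mice received 10 mg doses of tamoxifen by gavage. Libraries labelled mutant came from Rfx6f/f; Vilin-CreERT2 mice, in which tamoxifen activates a Cre recombinase driven by the villin promoter, active in intestinal epithelium, so that floxed Rfx6, a transcription factor gene of enteroendocrine cells, is removed there. Whole ileum was taken 8 days (3 control and 4 mutant mice) or 3 months (4 and 4) after tamoxifen. Controls carried no Cre: all 3 at 8 days and 2 at 3 months were Rfx6f/f, and the other 2 at 3 months were Rfx6f/+. Effects of activated Cre and of Rfx6 loss therefore cannot be told apart, nor can time after tamoxifen and cohort.

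Libraries held 26078462 to 54468586 counts. Rfx6 itself had 50 to 84 counts in controls and 44 to 105 in mutants at 8 days, and 38 to 52 against 65 to 106 at 3 months, where it was higher in mutants (log2 fold change 0.72, SE 0.17, edgeR adjusted p = 0.0347). These counts cover the whole gene, and the labels do not say which exons were removed, so they do not check the deletion and the groups are named by label. Ileal markers (Fabp6 and Slc10a2) summed to 862.2 to 3195 counts per 1000000 (CPM) in every library, and Fabp6 fell at 3 months (log2 fold change -1.44). The colon and cecum markers Car1 and Aqp8 summed to 166.8 CPM in control replicate 3 and 467.9 CPM in mutant replicate 4 at 8 days, against at most 3.66 CPM elsewhere. The 3 pancreas markers summed to 580.4 CPM in control replicate 4 and 187.4 CPM in mutant replicate 4 at 3 months, against 3.48 to 101.0 CPM elsewhere. Without that control 13 members were called at 3 months, 9 of them among the 12 called with all libraries, and without that mutant 9 were called, 6 of them among the 12.

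Chemokines are small secreted or membrane-bound proteins that steer leukocytes by binding G protein-coupled receptors, while atypical receptors take ligands up without classical signalling. In the small intestine, epithelial CCL25 draws CCR9-bearing lymphocytes, CCL20 draws CCR6-bearing cells to lymphoid follicles, and CXCL13 and CXCR5 place B cells within follicles. Inflammatory ligands such as CCL2 and CCL5 act on monocytes and on effector T cells, and eotaxins act on eosinophils through CCR3. In whole tissue, fewer cells of a type and less RNA per cell cannot be told apart.

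At 3 months, the inflammatory ligands Ccl5, Ccl4, Ccl2, Ccl12 and Ccl22 and the receptors Ccr2 and Cxcr6 fell in the libraries labelled mutant, while the eotaxin Ccl24, its receptor Ccr3 and the stromal or epithelial ligands Cxcl12 and Cxcl14 rose. Of 43 members tested, 12 passed an adjusted p under 0.05 in edgeR's quasi-likelihood test (27.9%), where 9.28% of all 17085 genes tested did. The members split into 4 higher (9.3%; 4.96% of all genes) and 8 lower (18.6%; 4.32% of all genes). Their median log2 fold change was -0.61 against 0.008 over all genes tested, with 12 positive and 31 negative. At 8 days 0 of 43 passed, against 0.0915% of 17493 genes, and DESeq2 called 1. An unadjusted p under 0.05 was reached there by 6 of 43 members and by 1540 of the 17493 genes. The members tested passed a filter on low counts, so these shares do not describe all 55.

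The level of each transcript was compared between genes as CPM per kilobase of exon, with each cohort scaled alone. The macrophage and myeloid ligand Ccl6 ranked highest, at a mean of 109.2 over the 15 libraries (range 80.9 to 146.8). Ccl25, the gut-homing ligand for CCR9, followed at 38.4 (29.0 to 44.0), and these ranges do not overlap. Cx3cl1, the membrane-bound ligand of intestinal phagocytes, came next at 24.0 (16.5 to 32.1), overlapping Ccl25 at its upper end. Below them the ranges ran into each other: Cxcl16 averaged 10.9 (9.01 to 13.8), Ccl5 10.6 (2.22 to 25.7) and Cxcl14 10.2 (7.33 to 16.1). Cxcl13 averaged 7.86 (1.76 to 22.5), Ccl8 7.67 (1.33 to 27.3) and Ccl11 7.5 (3.70 to 15.1). Cxcr4, the receptor for CXCL12, had the highest mean of the receptors at 7.0 (1.98 to 15.7), but in 8-day controls its mean of 2.62 lay below those of Cx3cr1 (3.66) and Ccr1 (2.81).

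At the bottom, Cxcr1, Ccl26 and Ccl1 had at most 1, 1 and 3 counts in any library. The CXCR2 ligands Cxcl1, Cxcl2, Cxcl3 and Cxcl15 averaged 0.867 to 8.33 counts, and of that neutrophil-attracting group Cxcl5 alone was tested at both times. The neutrophil markers S100a8, S100a9, Ly6g and Retnlg summed to 0.0586 to 3.03 CPM over the 15 libraries. The 12 members that did not pass the filter at 3 months were these 4 and Cxcr1, Ccl26, Ccl1, Ccl19, Ccl19-ps1, Cxcl17, Ccr8 and Ccr1l1, with 11 counts or fewer per library outside Cxcl1 and Cxcl15.

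**Figure D1:**
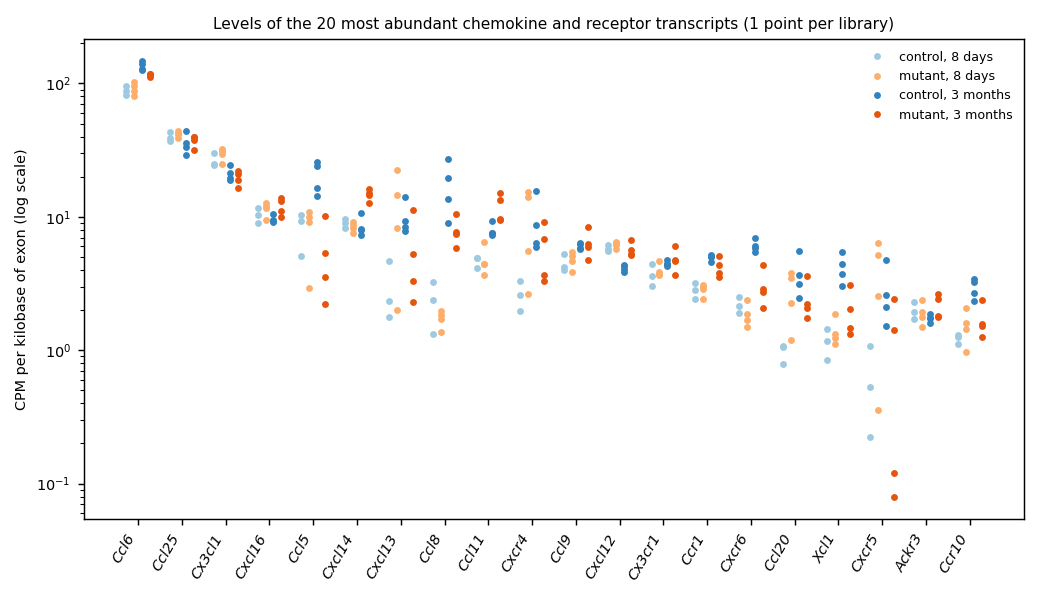
Level of the 20 most abundant members as CPM per kilobase of exon (log axis), 1 point per library, coloured by group. Ccl6, Ccl25 and Cx3cl1 lie in narrow bands, while Cxcl13, Cxcr5 and Ccl5 spread widely within groups.

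The steepest fall at 3 months was in Ccl5. Ccl5 (RANTES), made by cytotoxic T and NK cells, measured 15.7, 24.7, 23.1 and 13.8 CPM in controls and 3.40, 9.77, 2.13 and 5.16 CPM in mutants. Every mutant library lay below every control library. The log2 fold change was -1.92 (SE 0.42, edgeR adjusted p = 0.0294), a 3.79-fold lower level. Ccl4 (MIP-1 beta) measured 0.696, 2.0, 1.40 and 1.02 CPM in controls and 0.353, 0.627, 0.533 and 0.392 CPM in mutants, also without overlap (log2 fold change -1.42, SE 0.35, edgeR adjusted p = 0.0399). Its neighbour Ccl3, a ligand of CCR1, overlapped between groups at 0.487 to 0.829 CPM in controls and 0.429 to 0.605 CPM in mutants. For Ccl3 the edgeR adjusted p was 0.412.

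Cxcr6, the receptor for CXCL16 on resident T and innate lymphoid cells, fell from 11.7, 11.3, 10.6 and 13.4 CPM to 4.01, 8.45, 5.54 and 5.27 CPM (log2 fold change -1.01, SE 0.21, edgeR adjusted p = 0.0236). Its ligand Cxcl16 was not called by edgeR with all libraries. It measured 27.8 to 32.0 CPM in controls and 30.0 to 41.8 CPM in mutants, with overlap (log2 fold change 0.32, SE 0.11, edgeR adjusted p = 0.0925). DESeq2 called Cxcl16 higher (DESeq2 adjusted p = 0.0467). Exons of Cxcl16 share 18.3% of their bases with Zmynd15 on the opposite strand, and strand handling is not given in the sources used here.

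T-cell and cytotoxic markers moved with these genes. The 7 T-cell markers summed to 77.7 to 93.1 CPM in controls and 29.8 to 63.4 CPM in mutants, and 5 of 7 (Cd3d, Cd3g, Cd8a, Trac and Trbc2) fell at 3 months. The 4 cytotoxic markers (Gzma, Gzmb, Prf1 and Nkg7) summed to 134.2 to 207.2 CPM against 16.4 to 98.3 CPM, with 1 of 4 (Nkg7) called lower. Mutant replicate 2, with the highest T-cell sum among mutants, was also the highest mutant for Ccl5, Ccl4, Cxcr6 and Ccr2. No marker of either list was at 0 throughout. Their part in the falls of Ccl5, Ccl4 and Cxcr6 was not tested.

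Of 4 monocyte-attracting ligands of CCR2, Ccl2 and Ccl12 also fell at 3 months, and Ccl7 and Ccl8 did not pass. Ccl2 (MCP-1) measured 1.60, 1.66, 1.01 and 1.09 CPM in controls and 0.257, 0.363, 0.773 and 0.392 CPM in mutants (log2 fold change -1.56, SE 0.34, edgeR adjusted p = 0.0284). Ccl12 (MCP-5) measured 1.08, 1.44, 1.24 and 1.27 CPM against 0.225, 0.528, 0.480 and 0.534 CPM (log2 fold change -1.51, SE 0.26, edgeR adjusted p = 0.0151). Neither gene's groups overlapped, though both rest on few reads, with 7 to 47 counts per library for Ccl12 and 8 to 54 for Ccl2. Ccl7 and Ccl8, from the same chromosome 11 cluster, did not pass: Ccl8 spanned 4.61 to 13.9 CPM in controls and 2.99 to 5.41 CPM in mutants (log2 fold change -1.14, edgeR adjusted p = 0.0588), and Ccl7 had an adjusted p of 0.173 in edgeR. DESeq2 called Ccl8 lower (DESeq2 adjusted p = 0.00534), as did an edgeR fit of all libraries together (edgeR adjusted p = 0.0274).

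Ccr2, the receptor for these ligands on inflammatory monocytes, measured 14.7, 12.7, 18.1 and 14.6 CPM in controls and 7.87, 11.7, 10.3 and 9.18 CPM in mutants. The lowest control stayed above the highest mutant, and the log2 fold change was -0.62 (SE 0.15, edgeR adjusted p = 0.0365). Of 6 macrophage markers 0 were called lower: they summed to 230.5 to 287.9 CPM in controls and 260.7 to 361.2 CPM in mutants, and Csf1r was called higher (log2 fold change 0.60). Cx3cr1, the receptor of resident intestinal macrophages, measured 19.3 to 21.5 CPM in controls and 16.6 to 27.2 CPM in mutants (log2 fold change 0.09, SE 0.13, edgeR adjusted p = 0.674). Ccr1 overlapped between groups as well (edgeR adjusted p = 0.211).

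Ccl22, a dendritic-cell and macrophage ligand for CCR4 on regulatory and type 2 helper T cells, measured 5.43, 4.30, 4.47 and 4.19 CPM in controls and 1.77, 3.53, 1.33 and 1.82 CPM in mutants. Only mutant replicate 2 came near the controls. Of 4 dendritic-cell markers 0 were called lower and Clec9a was called higher (log2 fold change 1.09, edgeR adjusted p = 0.0192). The log2 fold change of Ccl22 was -1.13 (SE 0.28, edgeR adjusted p = 0.0402). The other CCR4 ligand, Ccl17, overlapped (0.731 to 1.20 against 0.385 to 0.990 CPM; edgeR adjusted p = 0.196), as did Ccr4 (0.669 to 2.33 against 0.514 to 1.02 CPM; edgeR adjusted p = 0.114).

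Among the members that rose at 3 months, Ccl24 (eotaxin-2), an eosinophil attractant of macrophages and epithelium, changed most. It measured 1.04, 0.276, 1.01 and 1.06 CPM in controls and 2.83, 2.90, 5.70 and 4.17 CPM in mutants. All mutants were above all controls, and control replicate 2 lay far below its group. The log2 fold change was 2.22 (SE 0.39, edgeR adjusted p = 0.0159), a 4.65-fold higher level. Without control replicate 2 Ccl24 was still called. Ccr3, the eotaxin receptor, measured 0.626, 1.57, 1.32 and 1.37 CPM in controls and 2.12, 2.41, 2.96 and 5.30 CPM in mutants, without overlap (log2 fold change 1.38, SE 0.36, edgeR adjusted p = 0.0449).

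The other eotaxin detected, Ccl11, measured 8.21, 10.1, 7.85 and 8.20 CPM in controls and 10.3, 14.6, 16.4 and 10.4 CPM in mutants. Its groups did not overlap, by a narrow margin, and it missed the threshold (log2 fold change 0.59, SE 0.17, edgeR adjusted p = 0.0595). DESeq2 called Ccl11 higher (DESeq2 adjusted p = 0.0122). The eosinophil markers Epx, Prg2, Il5ra and Siglecf, chosen after the values of Ccl24 and Ccr3 were seen, summed to 6.33 to 7.59 CPM in controls and 5.40 to 12.0 CPM in mutants, and 0 of 4 were called. Siglecf ranged from 0.939 to 2.46 CPM in controls and 1.06 to 7.33 CPM in mutants (log2 fold change 1.29). Prg2, Il5ra and Epx went the other way, with log2 fold changes of -0.72, -0.12 and -0.04. At 8 days Ccl24 measured 0.805 to 1.19 CPM in controls and 0.293 to 1.02 CPM in mutants, and Ccr3 0.221 to 0.379 against 0.0977 to 0.349 CPM, both overlapping.

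Cxcl14, a ligand of epithelium and stroma, and Cxcl12 (SDF-1), the stromal ligand of CXCR4, rose by less and with less spread. Cxcl14 measured 14.9, 13.4, 14.6 and 19.6 CPM in controls and 23.1, 29.4, 26.6 and 27.4 CPM in mutants, without overlap (log2 fold change 0.77, SE 0.13, edgeR adjusted p = 0.0126). Cxcl12 measured 35.4, 33.1, 31.8 and 35.3 CPM against 42.8, 46.3, 54.8 and 42.3 CPM, again without overlap (log2 fold change 0.46, SE 0.09, edgeR adjusted p = 0.0212). Blood and lymphatic endothelial markers summed to 69.9 to 76.1 CPM in controls and 80.9 to 92.5 CPM in mutants, with Cdh5 called higher (log2 fold change 0.49); smooth-muscle markers spanned 1348 to 1629 and 1470 to 2599 CPM. Their part in the rises of Cxcl12 and Cxcl14 was not tested.

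**Figure D2:**
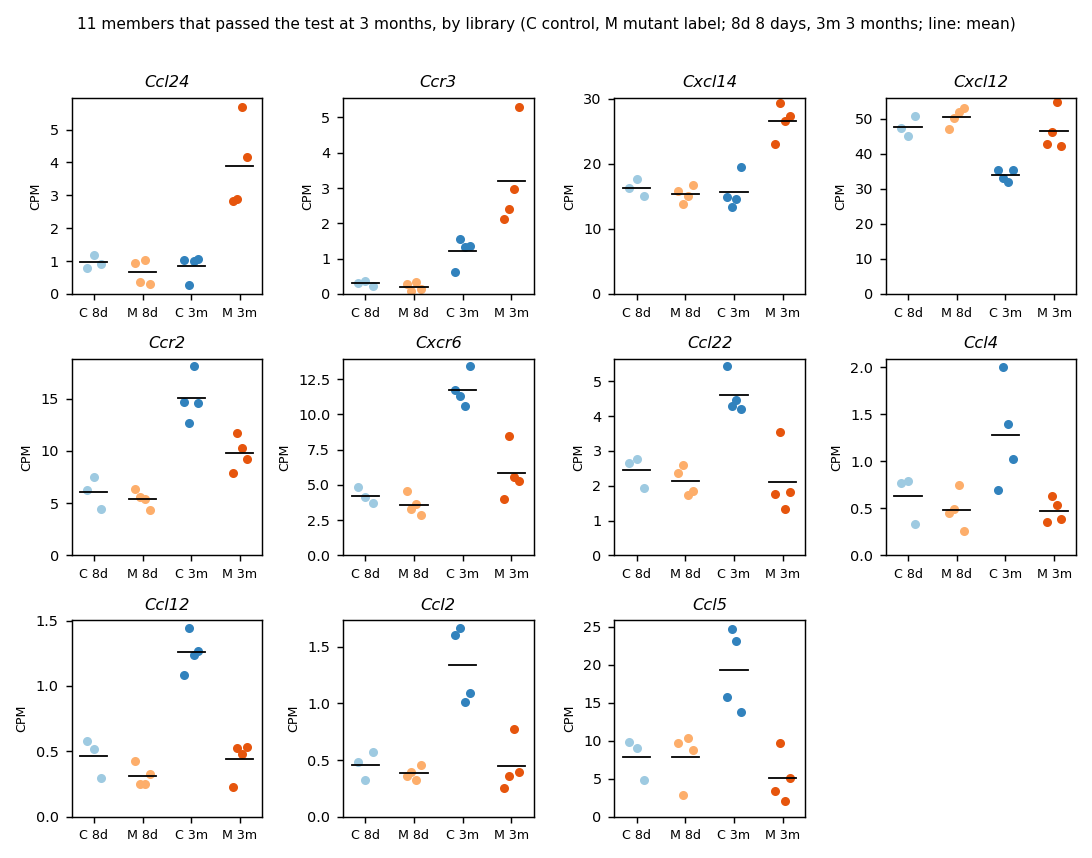
CPM in each library for 11 members called at 3 months, by group, with the group mean as a line and the axis from 0. At 3 months the mutant points lie above all control points for Ccl24, Ccr3, Cxcl14 and Cxcl12 and below them for the other 7 genes, while the 8-day groups overlap in every panel.

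Group separation gave a similar count: 14 of the 43 members (32.6%) had groups that did not overlap at 3 months, against 19.2% of all genes tested, and 1 of 43 at 8 days against 7.63%. Besides the 12 called members these were Ccl11, above, and Ccl6, below, at 3 months. Ccl6, the most abundant member, measured 263.6, 225.3, 252.5 and 229.9 CPM in controls and 211.5, 209.0, 202.5 and 212.1 CPM in mutants. Its log2 fold change of -0.22 (SE 0.06) missed the threshold (edgeR adjusted p = 0.0625), while DESeq2 called it lower (DESeq2 adjusted p = 0.0107). Just beyond the threshold stood Ccr10, the receptor of IgA plasma cells, at -0.80 (edgeR adjusted p = 0.0505), and Xcl1, a T- and NK-cell ligand for dendritic cells, at -1.07 (edgeR adjusted p = 0.0538). Under 9 other tools, scalings, filters and choices of controls, Ccr10 was called in 7 and Xcl1 in 4. Plasma-cell markers moved with Ccr10: Jchain, Mzb1 and Tnfrsf17, 3 of the 5, were called lower, and their part was not tested.

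How the calls depended on single libraries varied. Cxcl14, Ccl12 and Ccl24 stayed called in each of the 8 fits that left out 1 library. Cxcl12 stayed called in 5 of 8 and Cxcr6 in 4 of 8. Ccl5 and Ccl4 were called in 3 of 8, Ccl2 in 2 of 8, and Ccr2, Ccl22 and Ccr3 in 1 of 8. With the 2 Rfx6f/f controls alone, 0 members were called, and each of the 12 kept its direction. The log2 fold change of Ccl4 shrank from -1.42 to -0.84, and that of Ccl8 from -1.14 to -0.52. With these controls Ccl2, Ccl5, Ccl12, Ccl22, Cxcr6 and Ccr2 had -1.56, -1.53, -1.40, -1.19, -1.11 and -0.59. Ccl24, Ccr3, Cxcl14 and Cxcl12 had 1.89, 1.67, 0.62 and 0.40. Between the control genotypes, with 2 libraries each, the log2 difference of Ccl4, Rfx6f/f minus Rfx6f/+, was -0.99 (SE 0.35) and that of Ccl8 -1.05 (SE 0.31), neither called (edgeR adjusted p = 0.673 for both). In that comparison 0 of 45 members passed adjustment, against 0.0% of 17780 genes, and 4 members (Ccl8, Ccl4, Ccl3 and Ccl25) and 1220 genes had an unadjusted p under 0.05, so this comparison does not show that the genotypes are alike. Limma-voom did not call Ccl4 or Ccr3, and a minimum of 10 counts in every library removed Ccl2, Ccl12 and Ccl24 before testing.

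The CPM of some members also differed between the cohorts' own controls. This was not tested because cohort and time cannot be told apart and because the 3-month controls include the Rfx6f/+ genotype. Each cohort was also scaled alone, so small shifts between cohorts cannot be read as differences in level. Ccl8, a ligand of resident macrophages, measured 0.681 to 1.65 CPM in controls of the 8-day cohort and, in controls of the 3-month cohort, 6.99 and 4.61 CPM in Rfx6f/f and 13.9 and 10.0 CPM in Rfx6f/+ mice. Cxcl5, from epithelium and stroma, measured 0.202 to 0.298 and 0.845 to 2.71 CPM, and Ccl2 0.325 to 0.570 and 1.01 to 1.66 CPM. These ranges do not overlap. In mutants of the 3-month cohort Ccl2 spanned 0.257 to 0.773 CPM, a range that takes in the 8-day controls. Cxcl12 ran the other way, at 45.0 to 50.6 CPM in 8-day controls and 31.8 to 35.4 CPM in 3-month controls. Its range in 3-month mutants, 42.3 to 54.8 CPM, also took in the 8-day controls.

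Neither gene of the gut-homing pair passed the test. Ccl25, 38.4 CPM per kilobase on average, measured 215.7 to 327.9 CPM in controls and 236.1 to 297.3 CPM in mutants at 3 months (log2 fold change 0.06, SE 0.13, edgeR adjusted p = 0.773). Its receptor Ccr9 measured 14.9, 19.8, 19.0 and 16.2 CPM in controls and 8.86, 17.9, 8.69 and 10.4 CPM in mutants. Mutant replicate 2 overlapped the controls while the other 3 lay below them, and the fall was not called (log2 fold change -0.61, SE 0.23, edgeR adjusted p = 0.119). Without that replicate it was called (log2 fold change -0.91, edgeR adjusted p = 0.00749), and DESeq2 called it with all libraries (adjusted p = 0.0485). Exons of Ccr9 share 18.8% of their bases with AC165425.1 on the opposite strand. The epithelial ligand Cx3cl1 overlapped at both times, at 74.8 to 96.2 against 64.8 to 86.3 CPM at 3 months (log2 fold change -0.11, SE 0.11, edgeR adjusted p = 0.540).

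Ligands with other targets also overlapped at 3 months. Ccl9, a myeloid ligand also made by follicle-associated epithelium, measured 17.6 to 19.3 CPM in controls and 14.4 to 25.5 CPM in mutants (edgeR adjusted p = 0.815). Ccl27a, best known from skin, measured 0.829 to 1.30 against 0.759 to 1.53 CPM (edgeR adjusted p = 0.958). Cxcl11, an interferon-induced ligand of CXCR3, reached 3.63 CPM in controls and 2.39 CPM in mutants (edgeR adjusted p = 0.894), and 41.7% of its exon bases overlap the pseudogene Gm2673 on the opposite strand. Cxcl5 measured 0.845 to 2.71 against 0.225 to 1.49 CPM (log2 fold change -1.19, SE 0.55, edgeR adjusted p = 0.181).

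The dendritic-cell receptor Xcr1 overlapped at both times (3.35 to 4.75 against 2.63 to 4.75 CPM at 3 months; edgeR adjusted p = 0.703), as did the T-cell receptor Cxcr3 (1.91 to 2.64 against 1.39 to 2.24 CPM; edgeR adjusted p = 0.212) and the neutrophil receptor Cxcr2 (edgeR adjusted p = 0.335). The 3 atypical receptors were tested at both times and 0 were called. Ackr3, which scavenges CXCL12, measured 5.34 to 6.27 CPM in controls and 5.94 to 8.77 CPM in mutants at 3 months (log2 fold change 0.32, SE 0.15, edgeR adjusted p = 0.189). Ackr2 and Ackr4 had edgeR adjusted p-values of 0.726 and 0.906.

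**Figure D3:**
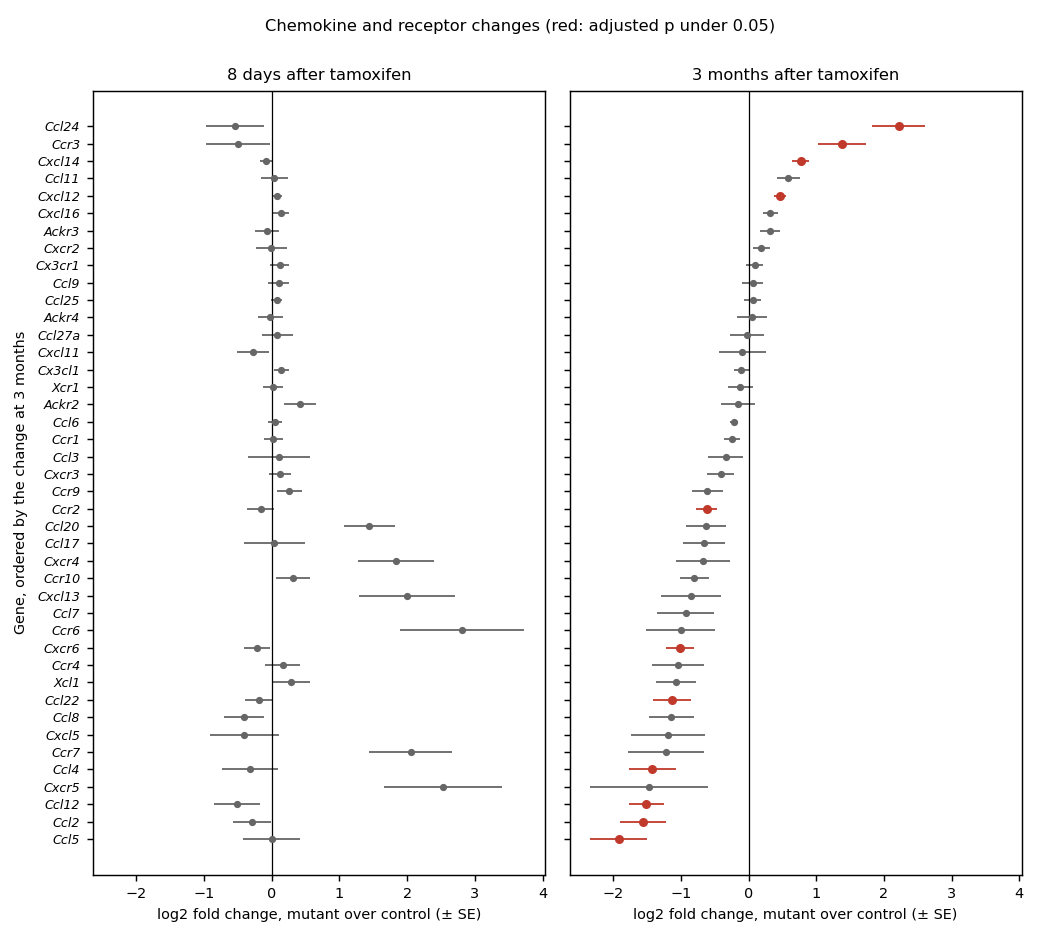
Log2 fold change of mutant over control with its SE for 42 members tested at 3 months, at 8 days (left) and 3 months (right), ordered by the value at 3 months, with called members in red. Ccl5 lies lowest and Ccl24 highest at 3 months, while at 8 days Ccr6, Cxcr5, Ccr7, Cxcl13, Cxcr4 and Ccl20 lie to the right with wide errors and 0 are called by edgeR.

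At 8 days 6 members had an unadjusted p under 0.05 in edgeR, which called 0 of them with all libraries. They were Cxcl13, Cxcr5, Ccr6, Ccr7, Cxcr4 and Ccl20, described here because of those values. Cxcl13, the B-cell attractant of follicle stroma, measured 2.03, 2.68 and 5.35 CPM in controls and 2.29, 9.48, 16.9 and 25.9 CPM in mutants. Its receptor on B cells, Cxcr5, measured 0.740, 1.76 and 3.57 CPM in controls and 1.19, 8.44, 17.2 and 21.1 CPM in mutants. For both genes mutant replicate 1 lay within the control range and the other 3 mutants lay above it. The libraries with colon and cecum markers, control replicate 3 and mutant replicate 4, were the highest of their groups for Cxcl13, Cxcr5, Ccr6, Ccr7 and Cxcr4, and the part of that tissue was not tested. Ccr6, the receptor for CCL20, had a similar spread, with 0.612, 0.813 and 1.67 CPM in controls and 0.630, 3.42, 12.2 and 13.8 CPM in mutants.

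Ccr7, which guides cells to lymph nodes and T-cell zones, measured 0.966, 1.33 and 1.36 CPM in controls and 1.08, 3.75, 6.44 and 9.13 CPM in mutants. Cxcr4 measured 3.57, 4.69 and 5.94 CPM in controls and 4.75, 10.1, 25.4 and 27.7 CPM in mutants. Ccl20, the ligand of follicle-associated epithelium, was the member whose groups did not overlap at 8 days, with 1.13, 1.54 and 1.51 CPM against 1.71, 3.20, 5.42 and 4.94 CPM. None passed the test in edgeR: the log2 fold changes were 1.44 (SE 0.38) for Ccl20, 2.05 (0.61) for Ccr7, 1.83 (0.56) for Cxcr4, 2.81 (0.92) for Ccr6, 2.53 (0.87) for Cxcr5 and 2.0 (0.71) for Cxcl13, with adjusted p of 0.443 to 0.472. Without mutant replicate 1, Ccl20, Ccr7, Ccr6 and Cxcr4 were called (edgeR adjusted p of 0.0322 to 0.0485). DESeq2 called Ccl20 with all libraries (DESeq2 adjusted p = 0.0141).

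B-cell, follicle and follicle-associated epithelium markers were spread over the same libraries. The 7 B-cell markers (Cd79a, Cd79b, Ms4a1, Cd22, Pax5, Fcer2a and Cr2) summed to 19.6, 28.3 and 51.2 CPM in controls and 22.6, 119.7, 249.7 and 270.8 CPM in mutants at 8 days. Mutant replicate 1 was again at the control level. The follicle-stroma markers summed to 18.2 to 42.9 CPM in controls and 21.2 to 188.9 CPM in mutants. The 4 markers of follicle-associated epithelium and M cells, 1 of them the member Ccl9, summed to 46.8 to 48.6 CPM in controls and 51.9, 72.2, 95.6 and 102.1 CPM in mutants. In this sum, as for Ccl20, mutant replicate 1 was the lowest mutant and above every control. Single markers differed from the sum. The lowest mutant value of Gp2, 0.27 CPM, lay below all controls (0.681 to 2.19 CPM). That of Spib, 11.3 CPM, lay within the control range (9.04 to 14.6 CPM). At 3 months the B-cell sum was 95.8, 212.2, 118.5 and 154.2 CPM in controls and 70.2, 19.8, 18.1 and 141.7 CPM in mutants. None of these markers was called at either time, none was at 0 throughout, and the part of follicle tissue in these values was not tested.

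At 3 months the same genes were spread in the opposite direction, with overlap. Cxcr5 measured 5.08, 15.9, 6.99 and 8.66 CPM in controls and 4.69, 0.264, 0.400 and 8.01 CPM in mutants (log2 fold change -1.47, SE 0.87, edgeR adjusted p = 0.291). Mutant replicates 2 and 3 were the libraries of this cohort with the lowest B-cell sums. Cxcl13 measured 9.05 to 16.1 CPM in controls and 2.64 to 12.9 CPM in mutants, Ccr6 1.98 to 4.42 against 0.613 to 3.20 CPM, and Ccr7 3.31 to 5.84 against 0.373 to 4.13 CPM. Their edgeR adjusted p-values were 0.233, 0.226 and 0.180. Cxcr4 had a log2 fold change of -0.67 (edgeR adjusted p = 0.292) and Ccl20 of -0.63 (edgeR adjusted p = 0.187). With Rfx6f/f controls only, these were -0.10 and -0.36. Without mutant replicate 4, the mutant with the highest pancreas sum, Cxcl13 (log2 fold change -1.45, edgeR adjusted p = 0.0362) and Ccr7 (-1.92, edgeR adjusted p = 0.0489) were called lower.

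**Figure D4:**
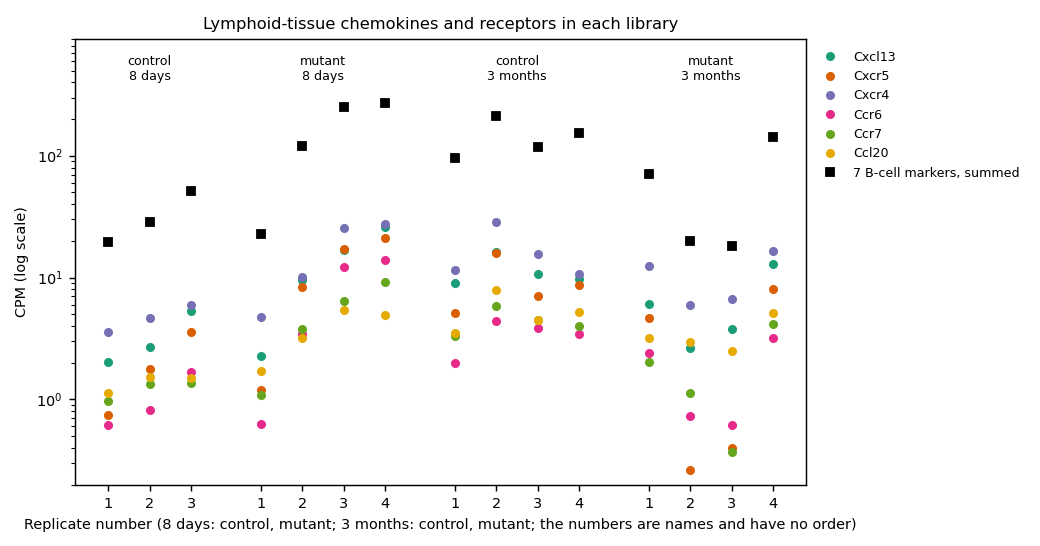
CPM (log axis) of Cxcl13, Cxcr5, Cxcr4, Ccr6, Ccr7 and Ccl20 in each library, with the summed CPM of 7 B-cell markers as black squares, by group and replicate number. Mutant replicate 1 is the lowest 8-day mutant for all 6 genes, while mutant replicates 2 and 3 at 3 months have the lowest B-cell sums of that cohort, 19.8 and 18.1 CPM.

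The difference in effect between 3 months and 8 days was tested directly, and 1 of 45 members passed (2.22%), where 0.785% of 17959 genes did. It was Cxcl14, whose log2 fold change was 0.83 higher at 3 months (SE 0.16, edgeR adjusted p = 0.0441). With Rfx6f/f controls only, the difference for Cxcl14 was 0.71 and was not called (edgeR adjusted p = 0.198). At 8 days Cxcl14 had measured 16.3, 17.7 and 15 CPM in controls and 15.9, 13.9, 15.1 and 16.7 CPM in mutants, with partial overlap. The call held in 5 of 15 fits that left out 1 library; without control replicate 3 at 8 days, which carried colon markers, the difference was 0.89 (edgeR adjusted p = 0.0823), and without mutant replicate 4 it was 0.87 (edgeR adjusted p = 0.0716). For 22 of the 45 members, and 2973 of the 17959 genes, the unadjusted p was under 0.05. Among these Ccl24 had a difference of 2.74 (SE 0.62, edgeR adjusted p = 0.0553), Ccl20 -2.09 (SE 0.51, edgeR adjusted p = 0.0613) and Ccr6 -3.83 (SE 1.12, edgeR adjusted p = 0.0947). None was called in this fit. DESeq2 called Ccl24, Ccl20 and Ccr6 (DESeq2 adjusted p of 0.00103, 0.00243 and 0.0222). Without a filter edgeR called Ccl24 (edgeR adjusted p = 0.0455).

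Ligand and receptor levels were then compared across the 15 libraries after each group's mean was removed from log2 CPM, for 11 known pairs in which both genes averaged at least 10 counts. Cxcl13 and Cxcr5 deviated together, with Pearson's r of 0.92 (permutation p = 3e-05, adjusted p = 0.00033) and Spearman's rho of 0.93 (permutation p = 8e-05, adjusted p = 0.00088). Without the 2 libraries farthest from the median of Cxcl13, r was 0.92. Within cohorts it was 0.98 at 8 days and 0.93 at 3 months. Ccl20 and Ccr6 gave r of 0.89 (permutation p = 8e-05, adjusted p = 0.00044) and rho of 0.83 (permutation p = 0.0003, adjusted p = 0.00165), with 0.87 without 2 libraries, 0.97 at 8 days and 0.76 at 3 months. Both pairs share libraries and depth, and the B-cell markers spread over the same libraries.

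The other 9 pairs did not pass adjustment. Ccl25 and Ccr9 gave r of 0.13 (permutation p = 0.665, adjusted p = 0.846) and rho of 0.29 (permutation p = 0.314, adjusted p = 0.671), with r of 0.44 without 2 libraries, 0.40 at 8 days and 0.05 at 3 months. For 7 of the others r lay between -0.37 (Cx3cl1 and Cx3cr1) and 0.43 (Xcl1 and Xcr1).

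**Figure D5:**
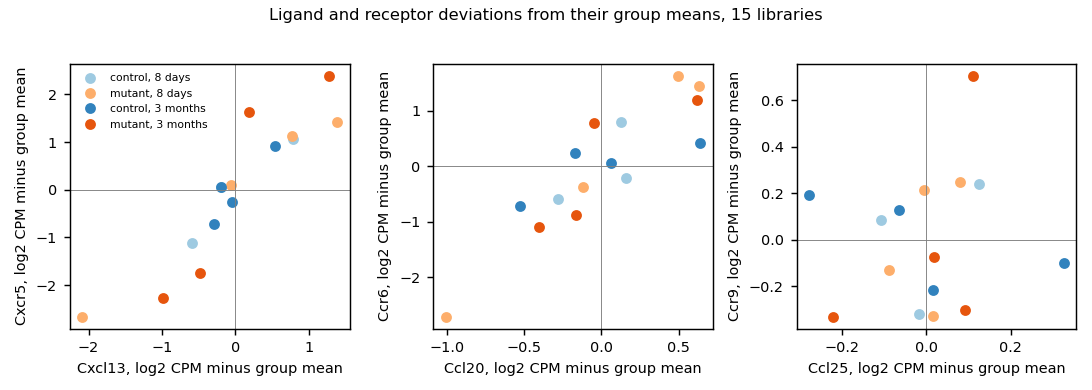
Log2 CPM minus the group mean for a ligand (x axis) and its receptor (y axis) in 15 libraries, coloured by group, for Cxcl13 and Cxcr5, Ccl20 and Ccr6, and Ccl25 and Ccr9. The Cxcl13 and Ccl20 panels form rising bands (r of 0.92 and 0.89), while the Ccl25 panel shows none (r of 0.13).

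Genes outside the rule that work with chemokines were described from 2 lists. Of 27 genes of lymphocyte homing and lymphoid tissue formation, 0 rose and 5 fell at 3 months by edgeR, where 4.96% of all genes tested rose and 4.32% fell. The 5 were Icam1 and Itgb2, an adhesion ligand and the chain of its leukocyte integrin receptor, Itgb7 and Itgae, gut-homing and epithelial-retention integrins, and Selplg, the P-selectin ligand. Their log2 fold changes ran from -0.89 for Itgb7 and Itgae to -0.40 for Itgb2, and the list's median was -0.40 against 0.008 for all genes. Itgb7 spanned 31.9 to 41.0 CPM in controls and 14.2 to 27.1 CPM in mutants. In the same libraries the T-cell sum was 77.7 to 93.1 CPM in controls and 29.8 to 63.4 CPM in mutants, and the plasma-cell sum 2671 to 3541 against 1553 to 2188 CPM; their part was not tested. At 8 days 0 of 27 were called, against 0.0915% of all genes, with 22 of 27 fold changes positive and a median of 0.54. The B-cell and follicle-stroma markers had median log2 fold changes of 2.42 and 1.16 there, and their part was not tested. Madcam1 is in both the homing list and the follicle-stroma set, and the 1.16 is its own value. Leaving out control replicate 2 left 1 call of the list at 3 months, and leaving out control replicate 1 or 3 or mutant replicate 1 or 3 left 0.

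Of 24 tested genes of chemokine signalling, 2 rose and 4 fell at 3 months by edgeR, against the same 4.96% and 4.32% of all genes. The rises were Pf4, a platelet CXC chemokine also found in macrophages (1.79 to 3.34 against 4.14 to 8.98 CPM), and Rgs2, which limits G protein signalling. The falls were Ccrl2, a chemokine-binding receptor that does not signal (3.98 to 4.54 against 2.83 to 3.14 CPM), Rac2 and Coro1a, leukocyte regulators of the actin skeleton, and the receptor kinase Grk6. Of the T-cell markers 5 of 7 fell with them, and their part was not tested. The list had 0 calls at 8 days, and 0 calls at 3 months without control replicate 1, 2 or 3. Leaving out mutant replicate 1 or 3 left 1 call, and leaving out mutant replicate 2 left 3.

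Promoters of the called ligands that have an entry in RefSeq's table (GRCm38.p6) are shown because these genes were called at 3 months, Ccl12 and Ccl22 lower and Cxcl12 and Cxcl14 higher. Each run spans 250 bases before to 50 bases after the gene's start, and capitals mark motif matches.
Ccl12 (chr11:82101595-82101894, forward strand): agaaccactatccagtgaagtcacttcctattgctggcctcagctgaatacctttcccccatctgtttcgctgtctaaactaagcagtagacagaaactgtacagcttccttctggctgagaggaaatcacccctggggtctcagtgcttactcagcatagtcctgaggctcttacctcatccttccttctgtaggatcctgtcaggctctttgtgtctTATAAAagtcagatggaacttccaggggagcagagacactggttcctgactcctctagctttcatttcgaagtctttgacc
Ccl22 (chr8:94745434-94745733, forward strand): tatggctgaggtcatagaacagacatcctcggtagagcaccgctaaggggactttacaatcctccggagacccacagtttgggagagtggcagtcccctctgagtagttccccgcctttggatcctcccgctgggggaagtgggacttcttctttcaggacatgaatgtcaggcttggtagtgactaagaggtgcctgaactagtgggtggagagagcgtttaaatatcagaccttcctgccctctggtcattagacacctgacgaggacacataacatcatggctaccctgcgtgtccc
Cxcl12 (chr6:117168285-117168584, forward strand): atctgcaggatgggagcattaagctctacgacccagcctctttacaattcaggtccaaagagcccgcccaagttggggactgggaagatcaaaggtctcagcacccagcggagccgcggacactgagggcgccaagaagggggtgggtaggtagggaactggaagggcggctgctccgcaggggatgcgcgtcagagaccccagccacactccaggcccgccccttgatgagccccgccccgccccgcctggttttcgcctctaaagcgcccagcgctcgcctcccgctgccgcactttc
Cxcl14 (chr13:56296502-56296801, reverse strand): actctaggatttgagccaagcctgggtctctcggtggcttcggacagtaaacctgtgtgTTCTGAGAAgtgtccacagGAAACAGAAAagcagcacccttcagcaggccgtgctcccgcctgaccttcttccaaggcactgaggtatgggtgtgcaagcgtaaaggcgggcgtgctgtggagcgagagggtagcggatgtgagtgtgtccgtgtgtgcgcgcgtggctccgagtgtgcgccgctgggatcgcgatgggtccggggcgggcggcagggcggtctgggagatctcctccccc

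The motifs searched on both strands were TATAAA (the TATA box core), TTCNNNGAA and TTCNNNNGAA (STAT-type sites), GAAANNGAAA (the core of the interferon-stimulated response element) and the kappaB consensus. The Ccl12 promoter held TATAAA at -31 from the start. The Cxcl14 promoter held TTCNNNGAA at -191 and GAAANNGAAA at -172, and the windows of Ccl22 and Cxcl12 held none of these letters. Over 32851 promoters, the shares with a match were 13.6% for TATAAA, 8.3% for TTCNNNGAA, 6.95% for TTCNNNNGAA, 3.44% for GAAANNGAAA and 8.46% for kappaB. In the 43 promoters of the 39 members with an entry they were 30.2%, 9.3%, 2.33%, 4.65% and 25.6%. Among called members Ccr3 held a kappaB match, at -179.

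Many members sit side by side in RefSeq gene order. On chromosome 11, Ccl2, Ccl7, Ccl11, Ccl12 and Ccl8 follow each other with Ccl1, and at 3 months Ccl2 and Ccl12 fell while Ccl11 had a log2 fold change of 0.59. A separate chromosome 11 run holds Ccl5, Ccl9, Ccl6, Ccl3 and Ccl4, of which Ccl5 and Ccl4 fell and Ccl9 had a log2 fold change of 0.06. On chromosome 9, Ccr3 and Ccr2 are adjacent, yet Ccr3 rose while Ccr2 fell.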

How the data were processed

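RNA from the ileum of 15 mice was depleted of ribosomal RNA and sequenced, per the labels' protocols, although the molecule label names polyA RNA. The authors deposited raw counts per Ensembl gene, 1 table per cohort. The submitters' processing notes name bcl2fastq 2.17.1.14, Bowtie 1.0.0, Bowtie2 2.1.0, TopHat2 2.0.10, HTSeq 0.6.1 and mm9; the annotation release and strand handling are not given in the sources used here. The protocols allow 2 RNA extraction methods without assigning them, so extraction could not be modelled.

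Symbols (32897 of 37620 identifiers), exon lengths and exon overlaps came from GENCODE on GRCm38, so lengths may differ from the authors' models. Each cohort was fitted alone with edgeR 4.0.16 (R 4.3.3; filterByExpr minimum count 10, TMM, quasi-likelihood F test, Benjamini-Hochberg over all genes tested, called at adjusted p under 0.05). The difference between cohorts was a contrast over all 15 libraries. CPM used TMM-scaled totals. P-values are two-sided, and those of the fits judge a difference against the spread between mice. Pairs were compared on log2 CPM (prior count 2) with 100000 permutations within groups, adjusted over 11 pairs. DESeq2 1.42.0, limma-voom 3.58.1, other scalings, filters and left-out libraries were alternatives. Replicates were numbered in deposit order. The closest replicates differed by a chi-square of 12.1 per degree of freedom, so none was merged. The fits were tested on simulated counts.

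The members, gene lists and tests were chosen with earlier results of these data known. Results that rest on some genes are not reported here, although counts over all members include them. Named members were otherwise those called, the 10 highest per kilobase, the pairs' partners and the 5 smallest p at each time. Other members named were chosen after their values were seen.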

Additional observations from a re-analysis of the deposited data

Results flagged for a closer look

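Of 99 checks for a library far from the rest of its group, 3 met Dixon's criterion, where chance gives about 1 in 20, or 4.95. Ccl11 was 10.1 CPM in control replicate 2 at 3 months and 7.85 to 8.21 CPM in the other controls. Ccl24 was 0.276 CPM in the same library and 1.01 to 1.06 CPM in the others. Ccl19, a T-zone ligand, was 0.214 CPM in mutant replicate 4 at 3 months and had 0 counts in the other mutants there, where 3 counts correspond to 0.0800 to 0.0990 CPM.

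In the fit of all libraries the effect on Cxcl14 differed between time points by the test of the difference itself, being 0.83 higher on the log2 scale at 3 months. With Rfx6f/f controls only, it was not called.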

How the results depend on the processing

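No paired analysis was possible because the labels give the groups no shared replicate numbers. The counts of calls below come without the share of all genes called in the same setting. They therefore do not set members or lists against other genes. DESeq2 called 1 member at 8 days, 19 at 3 months and 11 for the difference between times, against 0, 12 and 1, and for the homing list 8 at 3 months and 13 for the difference, and 7 signalling genes for the difference. With Rfx6f/f controls only, which leaves 2 controls at 3 months, member calls were 0 at 3 months and 0 for the difference, and the list calls at 3 months were 0 and 0. Without a filter the difference gave 2 members and 3 homing genes, and with 10 counts in every library 3 homing genes. A further cutoff of 1 on the size of the log2 fold change left 0 members for the difference, 0 homing genes and 1 signalling gene at 3 months. Other scalings, no filter and the robust fit gave 12 or 13 members at 3 months, including the 12. Limma-voom gave 12, of which 10 were shared, 10 counts in every library, which leaves 3 of the 12 untested, gave 11, of which 9 were shared, and the joint fit gave 16.

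Leaving out 1 library gave 0 to 4 members at 8 days, 4 to 14 at 3 months and 0 to 8 for the difference. At 3 months control replicates 1, 2 and 3 left 5, 4 and 4, and mutant replicates 1 and 3 left 6 and 7. For the difference, leaving out mutant replicate 1 at 8 days gave 7, mutant replicates 2 and 4 at 3 months 8 and 4, and 10 of the 15 libraries 0. The homing list gave 0 to 7 at 8 days, 0 to 5 at 3 months and 0 to 15 for the difference; the signalling list gave 0 to 2, 0 to 7 and 0 to 6. The highest counts at 8 days and for the list differences came without mutant replicate 1 at 8 days. Why calls moved was not tested; fewer libraries lower the power.

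Pearson's r for Cxcl12 and Cxcr4 moved from -0.06 to 0.27 without 2 libraries, 0.79 at 8 days and -0.67 at 3 months. For Cxcl16 and Cxcr6 it moved from 0.08 to -0.03 and -0.08, for Ccl2 and Ccr2 from -0.27 to -0.78 without 2 libraries, -0.86 at 8 days and 0.05 at 3 months, for Ccl22 and Ccr4 to -0.33 at 8 days, and for Cxcl5 and Cxcr2 to 0.00 without 2 libraries. Depth limits the precision of members with few counts, such as Ccl12 with 7 to 47 per library.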
